A study of Mus musculus with 6 samples.

Results

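Messenger RNA of 10 genes that sense and take up glucose was followed in splenic monocytes of mice treated by mouth with water or with vancomycin. The genes are Mlxipl, which encodes ChREBP, Mlxip, which encodes MondoA, their partner Mlx, the arrestin genes Txnip and Arrdc4, the glucose transporter genes Slc2a1 and Slc2a3, and the hexokinase genes Hk1, Hk2 and Hk3. They were selected by symbol, each symbol had 1 row, and all 10 of them were among the 16138 genes that passed the filter on low counts, of 46072 identifiers in the tables. Mlxipl was picked because its level fell in the very comparison described here, so its values are given as a description with no test, and the question put to the other 9 genes was whether they moved with it.

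The study asked how lipids of gut Bacteroidota, a phylum of bacteria, act on responses of splenic monocytes, and used vancomycin to lower these bacteria. The paper reports a flora that recovered during rest but stayed low in Bacteroidota. The mice were adult female C57BL/6 animals with no transgene or deletion. Mice of the Con group (n = 3) were gavaged with water and mice of the Van group (n = 3) with vancomycin at 2 mg per day, in both groups for 6 days, and all then rested for 6 to 8 days by the labels with no further antibiotic. The study's own text gives the upper end of that range for the mice sequenced. Monocytes were enriched from the spleen by magnetic removal of other cells, and 1 stranded mRNA library was made per mouse. The p-values therefore rest on separate mice.

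ChREBP and MondoA are the Mondo family of basic helix-loop-helix leucine zipper factors. Each is drawn to the nucleus when glucose 6-phosphate rises, pairs there with MLX and binds carbohydrate response elements, which are made of E-box-like motifs set a short fixed distance apart. ChREBP is best known in liver and fat, where it drives glycolytic and lipogenic genes, whereas MondoA is the family member of most other cells. Txnip and Arrdc4 are the best known direct targets of MondoA, and their products pull glucose transporters from the cell surface, which closes a feedback loop on glucose uptake. Hexokinases make the glucose 6-phosphate that the factors sense.

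The motifs were looked up first, since the factors bind DNA through them. A promoter window of 250 bases before to 50 bases after the transcription start was given in RefSeq (GRCm38.p6) for 9 of the 10 genes, 11 windows in all, with 2 starts each for Mlxipl and Hk1. Both strands were searched for a pair of motifs, each CACGNG or CNCGTG, with 5 bases between them, and for the E-box CACGTG alone, which can form one member of such a pair. The pair was found in 27 of 32851 windows of all genes (0.0822%), and among the 11 windows in that of Txnip alone, where it began 85 bases before the start. The stretch of the Txnip promoter from chr3:96557808-96557956 (plus strand) is shown because it holds both motifs of the pair, with the pair and the bases between in capitals.
Txnip: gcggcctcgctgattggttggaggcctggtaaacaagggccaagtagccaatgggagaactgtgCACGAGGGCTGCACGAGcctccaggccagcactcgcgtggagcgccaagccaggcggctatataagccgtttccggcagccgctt

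The single E-box CACGTG was found in 2349 of the 32851 windows (7.15%) and in 3 of the 11 windows here. It began 98 bases before the upstream of the Mlxipl starts, which lie 17001 bases apart, 193 bases before the start of Arrdc4 and 40 bases before that of Mlx. These 3 stretches are shown for comparison with the pair in Txnip, with the E-box in capitals, and lie at chr5:135089772-135089817 (plus strand), chr7:68749406-68749451 (minus strand) and chr11:101087230-101087275 (plus strand).
Mlxipl: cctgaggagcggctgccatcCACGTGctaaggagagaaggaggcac
Arrdc4: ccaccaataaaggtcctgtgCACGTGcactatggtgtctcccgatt
Mlx: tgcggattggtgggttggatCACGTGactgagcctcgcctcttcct

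No window was given for Slc2a3, and the windows of Mlxip, Slc2a1, Hk1, Hk2 and Hk3 held neither pattern of letters. A match is a description of the sequence, and binding was not measured.

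Levels are given as CPM, a scale on which the deposited count of a gene is set relative to the TMM-scaled total of its library. CPM compares libraries for 1 gene. Levels of different genes were compared in FPKM, which is also scaled to transcript length. The 6 libraries held between 43383919 and 61834407 deposited counts, which is an estimated 16.3M to 23.2M fragments. The number of paired-end reads stated in the paper is lower than this estimate, and the difference was not resolved. Monocyte markers summed to between 16230 and 19291 CPM in every library. Markers of T cells summed to at most 52.9 CPM and those of neutrophils to at most 8.67 CPM, with Ly6g listed at 0. The 5 B cell markers, all lower in Van and none called by edgeR (0 with an unadjusted p under 0.05), summed to 17.5 to 20.5 CPM in Con and 14.3 to 17.1 CPM in Van. The 4 megakaryocyte and platelet markers, also all lower and none called by edgeR (2 with an unadjusted p under 0.05), summed to 15.2 to 30.6 CPM in Con and 12.9 to 18.0 CPM in Van. Of the markers, 5 of 8 erythroid genes rose in Van by the edgeR test described below, against 1.08% of all genes tested. The 8 erythroid genes summed to 81.2 to 169 CPM in Con and 282 to 622 CPM in Van. The 5 red pulp macrophage markers summed to 985 to 1202 CPM in Con and 1320 to 1633 CPM in Van. None of these 5 was called by edgeR (3 with an unadjusted p under 0.05), with 4 higher and 1 lower in Van. Their log2 differences were 0.46 for Vcam1, 0.38 for Cd163, 0.26 for C1qa, 0.07 for Spic and -0.03 for Timd4. Of the 8 monocyte markers 4 separated the groups, as did 22.5% of all genes tested. Ccr2, the chemokine receptor of classical monocytes, fell from 757, 757 and 680 CPM to 316, 444 and 473 CPM (edgeR adjusted p 0.0283), while Itgam, Cx3cr1 and Cd14, which were not called, had log2 differences of -0.21, -0.17 and 0.28. Ly6c2, also not called, had overlapping groups and a log2 difference of -0.34 (edgeR adjusted p 0.24). Of the 4 nonclassical monocyte markers 3 were higher and 1 lower in Van, none called by edgeR (1 with an unadjusted p under 0.05). These 4 summed to 6901 to 7909 CPM in Con and 7058 to 9497 CPM in Van. Of the 5 dendritic cell markers 4 separated the groups, against the same 22.5%: Clec9a fell by 1.12 on the log2 scale (edgeR adjusted p 0.0131), while the log2 differences of Siglech, Xcr1 and Flt3, which were not called, were -0.88, -0.85 and 0.25. The summed dendritic cell markers lay between 55.4 and 61.4 CPM in every library. The part of these shifts in the results below was not tested, and in bulk RNA fewer cells of a type cannot be told apart from less RNA per cell.

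Per length, Txnip was the most abundant of the 10 transcripts and Mlxipl the least. Mean FPKM over all 6 mice was 75.6 for Txnip, 29.9 for Hk3, 23.1 for Mlxip, 15.9 for Mlx, 15.3 for Hk2, 14.5 for Hk1, 10.6 for Arrdc4, 10.3 for Slc2a1, 1.45 for Slc2a3 and 0.717 for Mlxipl. Txnip, with 63.6 to 87.2 FPKM, stood clear of all the others in every mouse. Hk3 (26.5 to 34.7 FPKM) exceeded Mlxip (17.5 to 29.2 FPKM) within each of the 6 mice, although the ranges over all mice overlapped. Mlx exceeded Hk1 in all 6 mice, whereas Hk2 lay above Mlx and Hk1 in the 3 Con mice and below both in the 3 Van mice. Arrdc4 exceeded Slc2a1 in 2 of the 6 mice, Con 2 and Van 3, so the order of that pair was not settled. Slc2a3 (1.15 to 1.73 FPKM) lay below every value of the 8 genes above it in the order. Mlxipl (0.138 to 2.46 FPKM) lay below Slc2a3 in each mouse except Con 3, where it was at 2.46 FPKM against 1.73 FPKM.

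Mlxipl, the gene the selection turned on, is at chr5:135089890-135138382 (GRCm38, plus strand). It was measured at 3.36, 1.78 and 8.25 CPM in the 3 Con mice and at 0.605, 0.628 and 0.727 CPM in the 3 Van mice. Every Con value lay above every Van value, and the Con mice differed among themselves by 4.62-fold from lowest to highest, against 1.20-fold in Van. The difference of Van from Con was -2.76 on the log2 scale, a level 6.78 times as high in Con. It rested in part on Con 3: without that mouse it was -1.97, and over the removal of each mouse in turn it ranged from -3.15 to -1.97.

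The values of Mlxipl in Van rest on few reads. The deposited counts were 174, 107 and 357 in Con and 36.7, 31.9 and 40.8 in Van, which correspond to an estimated 65.2, 40.0 and 134 fragments in Con and 13.8, 12.0 and 15.3 fragments in Van. Per length the values were 0.864, 0.509 and 2.46 FPKM in Con and 0.138, 0.148 and 0.177 FPKM in Van. On the log2(FPKM + 1) scale, which compresses low values, the difference was -0.88.

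Markers of liver and fat, in which ChREBP is best known, were at or near 0 in these libraries. The hepatocyte genes Alb, Apoa1 and Ttr were listed at 0 in every library, as were the adipocyte genes Plin1 and Lep, and the 4 adipocyte markers together reached at most 0.116 CPM. The insulin gene Ins1 was listed at 0 in every library. Genes of the exocrine pancreas were present, with summed pancreas markers of 109, 242 and 123 CPM in Con and 320, 80.2 and 223 CPM in Van, and their part in the level of Mlxipl was not tested. An antisense gene, Gm43500, shares exonic sequence with Mlxipl on the opposite strand (250 aligned bases at 99.2% identity) and was not analysed here. Whether strand was used in the counting is not given in the sources used here. Genes on the opposite strand also share exonic sequence with Mlxip, Mlx, Txnip, Slc2a1 and Hk1, and held at most 49.4 deposited counts in any library, against at least 1558 for each of these 5 genes.

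Mlxip, which encodes MondoA and lies at chr5:123394798-123457932 (plus strand), moved the other way. It measured 162, 136 and 151 CPM in Con and 203, 186 and 212 CPM in Van, a mean of 150 ± 12.8 against 200.1 ± 13.5 (SD, n = 3 each). All 3 Van mice lay above all 3 Con mice. The rise was 0.42 on the log2 scale (SE 0.08, 95% interval 0.24 to 0.60), or 1.34-fold, with an adjusted p of 0.0389 in edgeR's quasi-likelihood test after Benjamini-Hochberg adjustment over all 16138 genes.

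Mlxip was the single call at an adjusted p of at most 0.05 in edgeR among the 9 genes tested, set against a background of 2.00% of all genes tested, or 1.08% called higher in Van. None of the 9 was called lower in edgeR (3 of them had an unadjusted p under 0.05), against 0.917% of all genes. The estimated rise of Mlxip lay between 0.36 and 0.48 with any 1 mouse left out, and its adjusted p in edgeR then lay between 0.0537 and 0.144. It was called under 8 of 17 alternatives, which were those fitted on the counts of all 6 mice, and in none of the 3 limma fits on FPKM values, where the adjusted p was between 0.0989 and 0.303.

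Mlxip was far more abundant than Mlxipl, and the messenger RNA of both Mondo factors together was higher in each Van mouse than in each Con mouse. Summed FPKM of Mlxip and Mlxipl was 21.8, 18.0 and 22.2 in Con and 26.1, 25.3 and 29.4 in Van. Mlxipl made up 3.96%, 2.83% and 11.1% of that sum in Con and 0.530%, 0.586% and 0.602% in Van, a description since it uses the value that chose the gene. The contrast between the factors is drawn in the bar plot of FPKM per library.

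**Figure D1:**
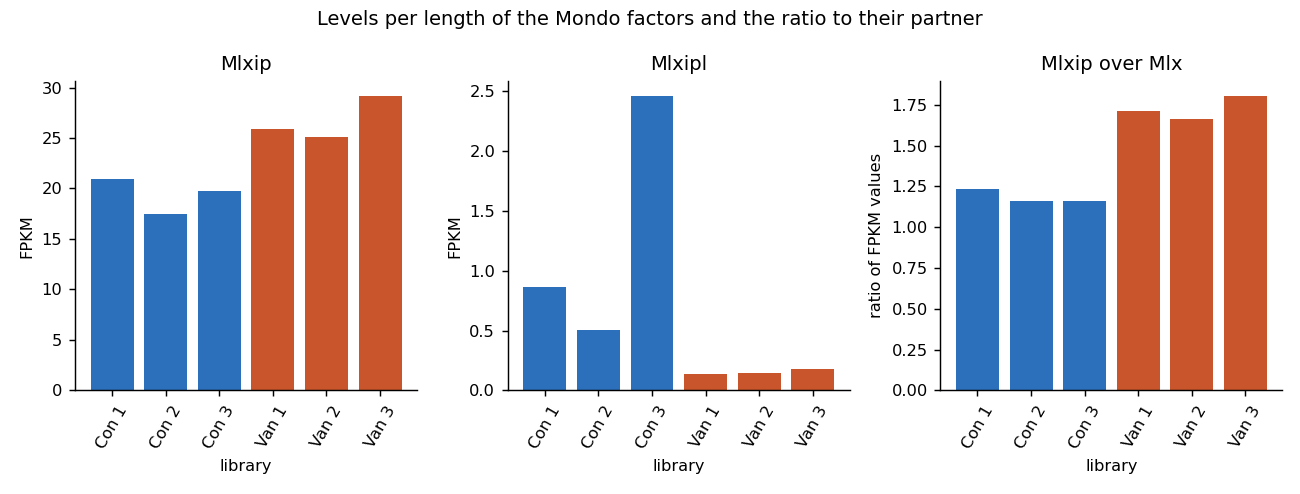
FPKM of Mlxip (left) and Mlxipl (middle) and the ratio of Mlxip to Mlx in FPKM (right) in each library, 1 bar per mouse, blue for Con and orange for Van, on separate vertical axes that start at 0. Mlxip was between 17.5 and 20.9 FPKM in Con and 25.1 and 29.2 FPKM in Van, and Mlxipl was at most 0.177 FPKM in Van.

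Mlx, the partner that both factors need to bind DNA, lies at chr11:101087277-101092207 (plus strand). It measured 37.5, 34.0 and 36.7 CPM in Con and 33.9, 33.1 and 35.6 CPM in Van, with overlapping groups. The log2 difference was -0.08 (SE 0.07, 95% interval -0.23 to 0.08) with an edgeR adjusted p of 0.65, and ranged from -0.12 without Con 2 to -0.05 without Con 1.

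The transcript of MondoA stood in a higher ratio to that of its partner in Van. The ratio of Mlxip to Mlx in FPKM was 1.24, 1.16 and 1.16 in Con and 1.71, 1.66 and 1.81 in Van. The groups did not overlap, and the exact two-sided permutation test over mice gave p = 0.1, the smallest value that 3 against 3 mice allow. This ratio was computed after the values of both genes were seen, so it is no separate result beside the rise of Mlxip.

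Txnip, which encodes an inhibitor of thioredoxin and of glucose uptake and is the most widely used readout of MondoA and ChREBP activity, lies at chr3:96557957-96561883 (plus strand). It was found at 249, 293 and 245 CPM in Con and 211, 228 and 278 CPM in Van. The groups overlapped, with the highest value in Con 2 and the next highest in Van 3. The log2 difference was -0.13 (SE 0.11, 95% interval -0.38 to 0.12) with an edgeR adjusted p of 0.622, and ranged from -0.26 without Van 3 to -0.05 without Con 2.

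Arrdc4, the other arrestin that MondoA controls, lies at chr7:68736995-68749241 (minus strand). Its levels were 39.7, 56.1 and 39.4 CPM in Con and 34.5, 42.9 and 58.7 CPM in Van. The spread within each group was wide, with a coefficient of variation of 21.2% in Con and 27.0% in Van, and the groups overlapped throughout. The log2 difference was 0.01 (SE 0.20, 95% interval -0.45 to 0.46, edgeR adjusted p 0.992), and its sign turned when single mice were left out, over a range from -0.22 to 0.20.

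The arrestin genes shared the mice at both ends of their range. Con 2 and Van 3 held the highest values of both Txnip and Arrdc4, in opposite order, and Van 1 held the lowest value of both. The ratio of Txnip to Arrdc4 in FPKM was 8.17, 6.65 and 8.20 in Con and 7.21, 7.07 and 6.29 in Van (exact two-sided permutation p = 0.3).

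**Figure D2:**
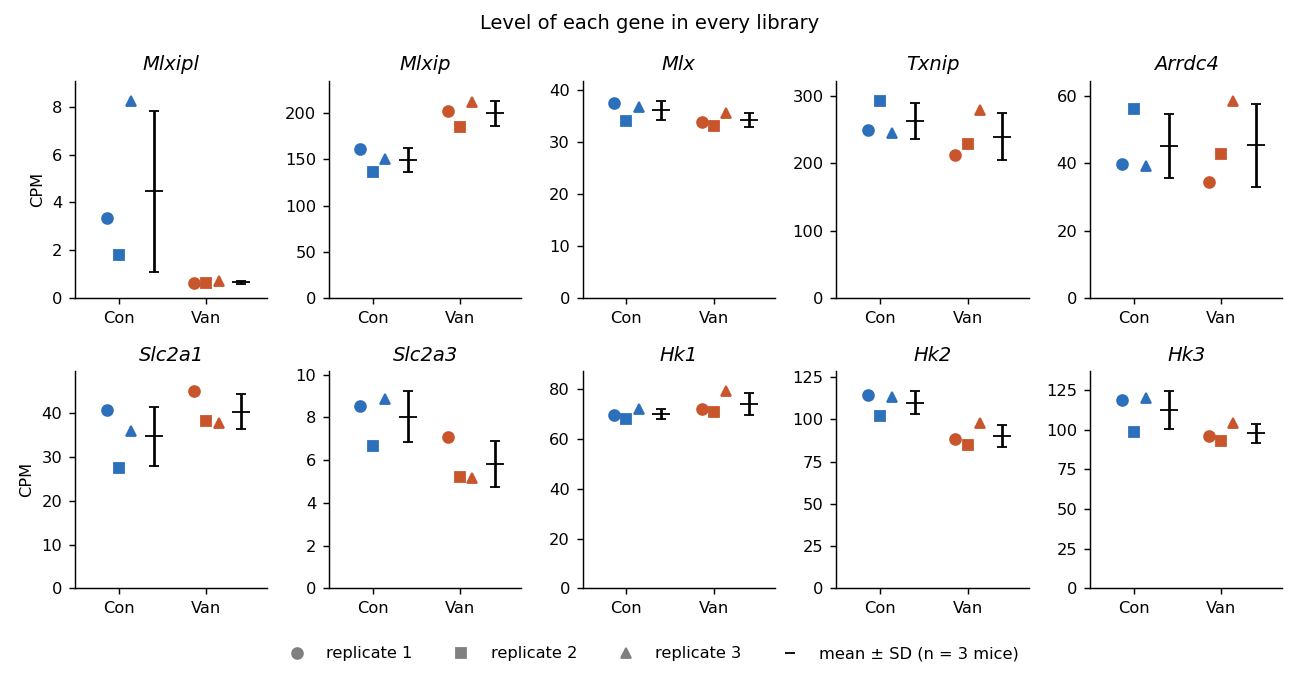
CPM of each of the 10 genes in every library, with vertical axes starting at 0, marker shape for the replicate number, blue for Con, orange for Van, and a bar for mean ± SD (n = 3 mice). Mlxipl and Hk2 lay lower and Mlxip higher in all 3 Van mice than in all 3 Con mice, and the groups of the other 7 genes overlapped.

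Neither glucose transporter gene passed the test. Slc2a1 encodes GLUT1, the basal glucose transporter, and lies at chr4:119108711-119137983 (plus strand). Its values were 40.7, 27.4 and 36.0 CPM in Con and 45.0, 38.3 and 37.7 CPM in Van, so that Van values lay within or just above the Con range. The log2 difference was 0.22 (SE 0.14, 95% interval -0.10 to 0.54) with an edgeR adjusted p of 0.497, and ranged from 0.07 without Con 2 to 0.35 without Con 1.

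Slc2a3, which encodes the high-affinity transporter GLUT3, lies at chr6:122727809-122801640 (minus strand). It measured 8.54, 6.65 and 8.88 CPM in Con and 7.06, 5.22 and 5.16 CPM in Van, and Van 1 lay above Con 2. The log2 difference in CPM was -0.46 (SE 0.17, 95% interval -0.85 to -0.07), with an edgeR adjusted p of 0.228. Per length the groups were closer, at 1.42, 1.45 and 1.73 FPKM in Con and 1.55, 1.15 and 1.40 FPKM in Van.

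GLUT1 transcript thus exceeded GLUT3 transcript in every mouse on the per-length scale. Slc2a3 made up 11.4%, 16.3% and 14.8% of the summed FPKM of the pair in Con and 11.0%, 10.1% and 11.6% in Van, a difference of means of -3.23 percentage points (exact two-sided permutation p = 0.2, where 0.1 is the smallest possible). The difference was -6.36 points as a share of CPM and -2.17 points in FPKM without Con 2.

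None of the hexokinase genes was called by edgeR, although 2 of the 3 had an unadjusted p under 0.05, against 16.5% of all genes. Per length Hk3 was the most abundant of the 3. Hk3, the hexokinase typical of myeloid cells, lies at chr13:55005985-55021385 (minus strand) and measured 119, 98.6 and 120 CPM in Con and 96.0, 93.0 and 104 CPM in Van. Con 2 fell among the Van values, so the groups overlapped. The log2 difference was -0.20 (SE 0.09, 95% interval -0.40 to -0.002) with an edgeR adjusted p of 0.298. Unc5a, which shares exonic sequence on the opposite strand, held between 351 and 546 deposited counts, against 4741 to 6156 for Hk3.

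Hk2 encodes the inducible hexokinase that sits on mitochondria, and lies at chr6:82725025-82774454 (minus strand). It measured 115, 102 and 113 CPM in Con and 88.2, 85.0 and 97.6 CPM in Van. Every Van mouse lay below every Con mouse, a log2 difference of -0.28 (SE 0.07, 95% interval -0.45 to -0.12), but the edgeR adjusted p was 0.0991 and the gene was not called. DESeq2's Wald test gave it an adjusted p of 0.0132, in a fit that called 7.36% of the genes with an adjusted p.

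Hk1, the constitutive hexokinase of most tissues, lies at chr10:62268855-62379908 (minus strand). It was found at 69.6, 68.1 and 72.2 CPM in Con and 72.2, 70.8 and 79.3 CPM in Van. The groups overlapped, and the log2 difference was 0.08 (SE 0.06, 95% interval -0.07 to 0.23, edgeR adjusted p 0.598). It was 0.03 without Van 3 and 0.12 without Van 2.

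The makeup of hexokinase transcript, drawn as stacked bars, was compared in shares of FPKM. Hk3 was the largest share of summed hexokinase FPKM in each mouse, at 51.7%, 49.1% and 51.8% in Con and 49.3%, 48.9% and 49.0% in Van, a difference of -1.75 percentage points (exact two-sided permutation p = 0.2). Hk2 made up 26.6%, 27.0% and 26.1% in Con and 24.2%, 24.6% and 24.8% in Van, and Hk1 made up 21.7%, 23.9% and 22.1% in Con and 26.4%, 26.5% and 26.2% in Van. For these shares, which were added after the values were seen, the groups did not overlap, the differences were -2.06 and 3.81 points, and the exact two-sided permutation p was 0.1 for each, the smallest possible. The summed level was 65.1, 57.3 and 67.0 FPKM in Con and 55.0, 54.2 and 60.3 FPKM in Van, which overlapped (exact two-sided permutation p = 0.2).

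**Figure D3:**
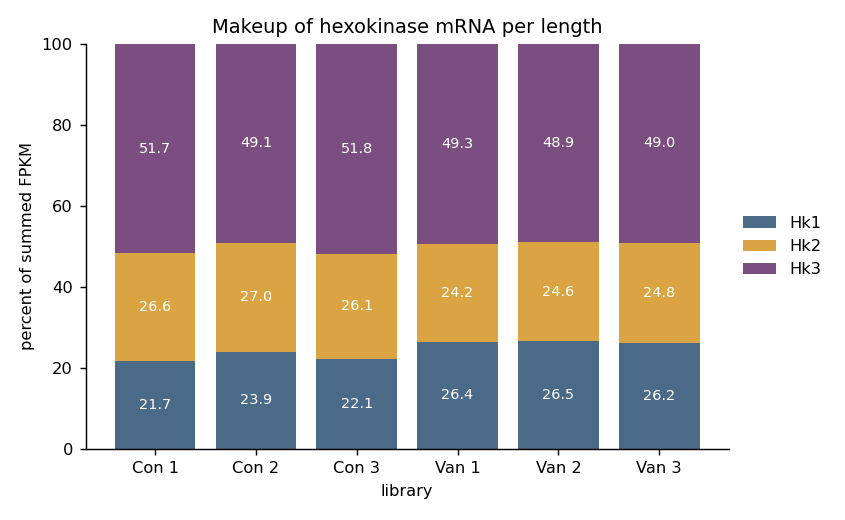
Share of Hk1, Hk2 and Hk3 in their summed FPKM in each library, as stacked bars that add to 100 percent, 1 bar per mouse. Hk1 lay between 21.7% and 23.9% in the Con mice and between 26.2% and 26.5% in the Van mice, and Hk2 was lower in each Van mouse than in each Con mouse.

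Considered over the 9 genes other than Mlxipl, 4 were higher and 5 lower in Van, and their median log2 difference was -0.08, against -0.0014 for all genes tested. Complete separation of Con from Van was seen for 2 of the 9, Mlxip and Hk2, and for 22.5% of all genes tested. An unadjusted p under 0.05 was given to 4 of the 9 (Mlxip, Slc2a3, Hk2 and Hk3), where it was given to 16.5% of all genes. The gene called went in the direction opposite to Mlxipl, and neither Txnip nor Arrdc4, the named targets, passed the test.

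**Figure D4:**
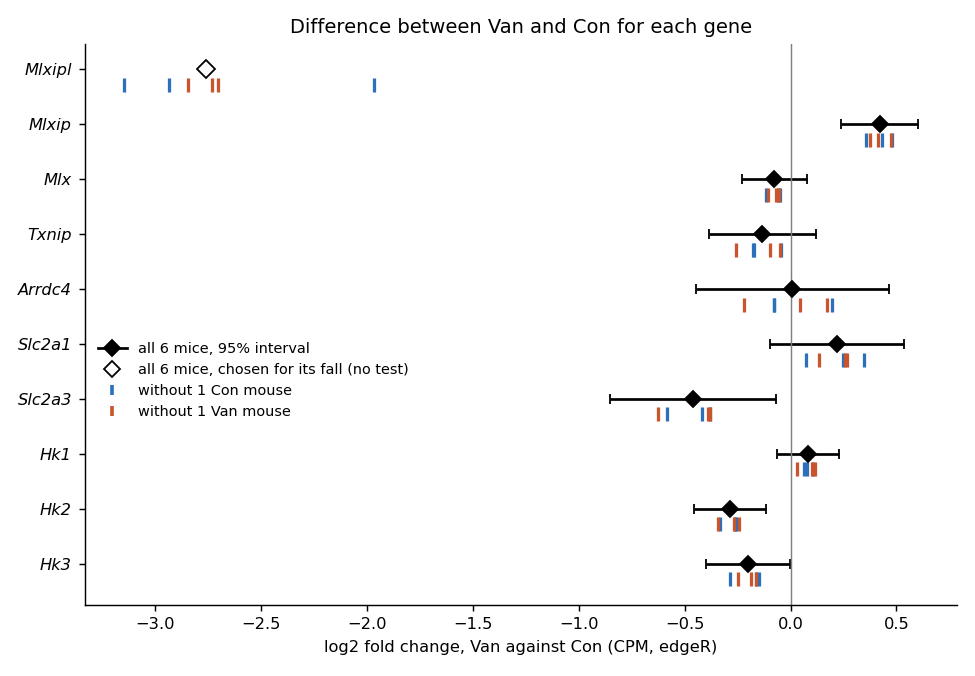
Log2 fold change of Van against Con for each of the 10 genes (horizontal axis). Filled diamonds with bars are estimates from all 6 mice with 95% intervals, the open diamond is Mlxipl, which has no test, and blue or orange ticks are the estimates without 1 Con or 1 Van mouse; the interval of Mlxip (0.24 to 0.60) lies above 0 and that of Arrdc4 (-0.45 to 0.46) spans it.

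Beyond these genes, 8 lists of other genes of the same pathways were read in the same fit. They hold 94 genes, of which 75 passed the filter, and 1 of these was called by edgeR, which called 2.00% of all genes, and 8 by DESeq2, which called 7.36%. Genes named for a DESeq2 call were chosen after the values were seen. Con and Van values separated fully for 16 of the 75 (21.3%, against 22.5% of all genes), 37 were higher and 38 lower in Van, and the median log2 difference was -0.01. In the account of the lists, pairs of values are mean ± SD of the 3 Con mice and then of the 3 Van mice. The median size of the difference regardless of sign was 0.10, against 0.15 over all genes tested.

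The MAX and MLX network holds the factors that compete for these partners. Of its 10 genes 9 were tested and none was called by edgeR, 1 with an unadjusted p under 0.05, and the median was -0.05. Mnt, a repressor that pairs with MAX or MLX, measured 95.6 ± 10.9 and 110 ± 15.8 CPM (log2 difference 0.21, edgeR adjusted p 0.427). Mga, another MAX partner, measured 99.0 ± 3.42 and 98.2 ± 1.13 CPM (edgeR adjusted p 0.952).

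The alpha-arrestins other than Txnip and Arrdc4, of which 3 of 4 were tested and none was called by edgeR (none with an unadjusted p under 0.05), had a median of 0.10. Arrdc3, a further arrestin, was at 166 ± 24.2 and 190.2 ± 17.3 CPM (edgeR adjusted p 0.419), and Arrdc1 was at 85.3 ± 2.32 and 84.6 ± 3.08 CPM (edgeR adjusted p 0.954).

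The thioredoxin system, on which the product of Txnip acts, held the 1 gene called by edgeR. Txnrd1, which encodes cytosolic thioredoxin reductase, measured 76.7, 95.9 and 91.6 CPM in Con and 118, 123 and 114 CPM in Van. All 3 Van mice lay above the Con mice, and the log2 rise was 0.43 (SE 0.09, edgeR adjusted p 0.0474), a call that was lost with RLE size factors, with the replicate block (adjusted p 0.080 in edgeR), in each of the 3 limma fits on FPKM (adjusted p 0.117 to 0.334) and with any 1 mouse left out. Txn1, which encodes thioredoxin itself, was at 149 ± 5.89 and 153 ± 11.9 CPM (edgeR adjusted p 0.856), and the median of the 5 genes was 0.04.

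Of the 10 other hexose transporters 7 had no count in any library, the liver and muscle transporters Slc2a2 and Slc2a4 among them, and none of the 3 tested was called by edgeR (1 with an unadjusted p under 0.05). Slc2a6, a transporter of myeloid cells that resides on lysosomes, was at 37.9, 42.8 and 47.1 FPKM in Con and 50.8, 43.6 and 34.8 FPKM in Van, above Slc2a1 and Slc2a3 in each mouse. It made up between 74.2% and 82.7% of the summed FPKM of the 3 transporters, with no separation of the groups (exact two-sided permutation p = 0.4). Slc2a9, a transporter of urate, was lower in each Van mouse, at 15.7, 15.4 and 13.2 CPM in Con and 10.8, 9.08 and 11.3 CPM in Van (log2 difference -0.51, edgeR adjusted p 0.0696). It was called lower by DESeq2 (adjusted p 0.0080) and by limma on log2(FPKM + 1) without and with a mean FPKM of at least 1 (adjusted p 0.0402 and 0.0479).

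The enzymes downstream of the hexokinases had no call in edgeR. Of 25 genes of glycolysis and lactate handling 23 were tested and none was called by edgeR (5 with an unadjusted p under 0.05), with a median of 0.01. DESeq2 called Adpgk higher (log2 difference 0.29, adjusted p 0.0188) and Eno3, a further enolase, lower (log2 difference -0.46, adjusted p 0.0238). Pkm, which encodes pyruvate kinase, was at 749 ± 36.7 and 780 ± 51.9 CPM (edgeR adjusted p 0.74), and Eno1, an enolase, was at 622 ± 37.7 and 591 ± 40.9 CPM (edgeR adjusted p 0.674). All 8 genes of the pentose phosphate pathway were tested, none was called by edgeR or had an unadjusted p under 0.05, and their median was 0.03. Tkt, transketolase, was at 665 ± 43.2 and 684 ± 29.1 CPM (edgeR adjusted p 0.826), and Taldo1, transaldolase, at 485 ± 11.0 and 526 ± 45.3 CPM (edgeR adjusted p 0.437).

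Genes that ChREBP controls in liver and fat were as often higher as lower in Van. Of 21 such genes 14 were tested, 4 had no count in any library, 7 of those tested were higher and 7 lower in Van, and none was called by edgeR (2 with an unadjusted p under 0.05). The median was 0.04. Acly, which makes cytosolic acetyl-CoA, was at 278 ± 13.2 and 272 ± 5.66 CPM (edgeR adjusted p 0.859), and Klf10, a glucose-induced repressor, at 185 ± 8.58 and 183 ± 36.5 CPM (edgeR adjusted p 0.969). Scd1, the stearoyl-CoA desaturase, was chosen after its values were seen as the furthest fall of the list and measured 7.13, 8.74 and 12.8 CPM in Con and 5.96, 5.80 and 3.64 CPM in Van, without overlap (log2 difference -0.89, edgeR adjusted p 0.122, DESeq2 adjusted p 0.0131).

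AMPK and the hexosamine pathway act on the Mondo factors and on Txnip protein. Of 11 genes 10 were tested, none was called by edgeR, 4 had an unadjusted p under 0.05 (against 16.5% of all genes), 5 separated the groups (against 22.5%) and the median was -0.06. These 5 were Prkaa1 and Prkab1, subunits of AMPK that were higher in Van, and Prkaa2, Prkab2 and Ogt, which were lower, and DESeq2 called Prkaa1 (log2 difference 0.24, adjusted p 0.0481), Prkab2 (log2 difference -0.26, adjusted p 0.0064) and Ogt. Ogt, the enzyme that attaches N-acetylglucosamine to proteins, ChREBP among them, measured 349, 424 and 351 CPM in Con and 296, 284 and 294 CPM in Van, without overlap (log2 difference -0.36, SE 0.08, edgeR adjusted p 0.0621). DESeq2 called it lower (adjusted p 0.0010), as did edgeR on genes with at least 10 counts in every library (adjusted p 0.0498). Gfpt1, the entry enzyme of the hexosamine pathway, was at 199.9 ± 11.4 and 219 ± 20.1 CPM (edgeR adjusted p 0.458). The point furthest to the left in the plot of the lists is Prkaa2, a catalytic subunit of AMPK, which reached at most 0.693 CPM in any library.

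**Figure D5:**
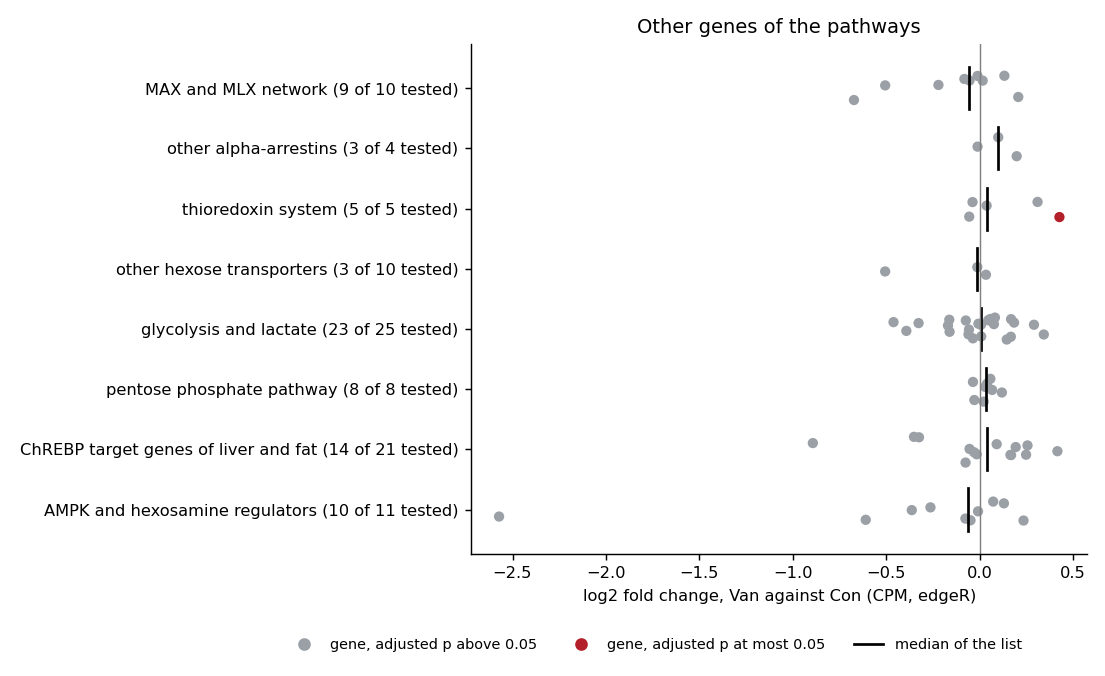
Log2 fold change of Van against Con (horizontal axis) for each tested gene of the 8 pathway lists, 1 point per gene with random vertical offset, red for an edgeR adjusted p of at most 0.05, and a black line at each list's median. The medians lie between -0.06 and 0.10, and the red point is Txnrd1.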

How the data were processed

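Splenic monocyte mRNA of 3 Con and 3 Van mice was measured with 1 library per mouse. The study's VanLip group is not analysed here. The data statement of the paper points to a different deposit, so treatment labels were used to tie these libraries to its groups. Reads were aligned by the authors to GRCm38 with HISAT2 2.2.1 and SAMtools 1.9 (submitters' processing notes) and assembled with StringTie 2.1.3 and Ballgown, and the deposited FPKM values are scaled to transcript length and library size. The authors converted these with tximport to the deposited estimated counts (expected counts), which follow covered bases and exceed the number of fragments. The fragment numbers given here assume 75 bases per count and 2 reads of 100 bases per fragment. The annotation release and the use of strand in counting are not given in the sources used here. DESeq2 1.38.3 is named in the notes for the authors' own tests.

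Expected counts were rounded and fitted in R 4.3.3 with edgeR 4.0.16 (TMM, filterByExpr at a minimum count of 10, quasi-likelihood test, with no term beside group). The Benjamini-Hochberg adjustment ran over all 16138 genes, with 0.05 as the highest adjusted p of a call. SE and 95% intervals are those of the group difference and were derived from the F statistic of that fit. Its variance between mice is moderated across genes. Shares and ratios of FPKM were tested with exact two-sided permutation tests, whose smallest p is 0.1. Mean chi-square per gene between libraries of 1 group was 20.5 to 42.8, so no library was a copy of another. The 10 genes and all lists were chosen with earlier results of these data known. Genes named are the 10, in each list those called and the 2 with the most CPM, and the 5 genes closest to Mlxipl by root mean square distance of mean-centred log2(CPM + 0.1) among genes of at least 1 CPM. Exceptions are named in the text.

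Alternatives were DESeq2 1.42.0, scaling by RLE or by library size alone, no low-count filter or one of 10 counts in each library, a replicate block, limma 3.58.1 on quantile-normalized FPKM (log2 with 1 or 0.1 added, and genes with a mean FPKM of at least 1), the fragment scale, 1 identifier per symbol and each library left out in turn. Scripts were tested on simulated data. Coordinates are from GENCODE on GRCm38 and promoters from RefSeq.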

Additional observations from a re-analysis of the deposited data

How the results depend on the processing

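The 322 genes called became 962 with DESeq2, 24 and 46 with limma on log2(FPKM + 1) without and with a mean FPKM of at least 1, and 0 on log2(FPKM + 0.1), where limma gave 2388 genes an unadjusted p under 0.05; without 1 library they ranged from 21 (without Van 2) to 136 (without Con 1), and were 22 without Con 3. The other fits gave 320 to 391, apart from the replicate block, given below. The split of 174 higher and 148 lower became 20 and 4, and 34 and 12, in the limma fits, 20 and 2 without Con 3 and 18 and 3 without Van 2. Of the 9 genes other than Mlxipl, 1 was called in the fit reported, 2 with DESeq2 and 0 in each limma fit (2 or 3 with an unadjusted p under 0.05) and without any 1 library. Of the pathway genes, 1 was called in the fit reported, 8 with DESeq2, 2 with at least 10 counts in every library, and 0 with RLE size factors (14 with an unadjusted p under 0.05), limma on log2(FPKM + 0.1) and without any 1 library. The cause of these changes was not tested. Replicate numbers did not pair the mice (correlations of 0.03, -0.0019 and -0.07, and not every library correlated best with its own number): with the replicate block 110 genes, 1 of the 9 and 0 pathway genes were called, and the difference of Arrdc4 was -0.0070. The difference of Arrdc4 was otherwise -0.22 to 0.20 without 1 library. The share of Hk3 differed by -2.62 to -1.28 points and that of Slc2a3 by -4.60 to -2.17 points without 1 library. Among the 10 genes, depth in Van was lowest for Mlxipl, with at most 15.3 estimated fragments in a library.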

Other observations

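The 5 genes whose profile over the 6 mice was closest to that of Mlxipl, among 12588 genes compared, were Ugt1a6b, Igkv8-30, Cgnl1, Vangl2 and Crybb1. The root mean square distance was 0.39 for Ugt1a6b, 0.63 for Igkv8-30, 0.65 for Cgnl1, 0.70 for Vangl2 and 0.73 for Crybb1 on the log2 scale, against a median of 1.34 over all genes compared. These are descriptions with no test, since likeness to a gene picked for its fall favours genes that fell.

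Ugt1a6b, a glucuronosyltransferase gene that shares exons with its neighbours, measured 1.91, 0.834 and 4.35 CPM in Con and 0.556, 0.353 and 0.727 CPM in Van. Like Mlxipl it was highest in Con 3 and lowest among the Con mice in Con 2. Cgnl1, which encodes a junction protein, measured 8.12, 18.1 and 34.6 CPM in Con and 3.48, 4.77 and 6.06 CPM in Van, also highest in Con 3. Igkv8-30, an immunoglobulin light chain segment of B lineage cells, measured 5.34, 7.75 and 18.9 CPM in Con and 2.26, 3.73 and 4.18 CPM in Van. Summed plasma cell markers were 72.1, 97.4 and 109 CPM in Con and 77.7, 77.0 and 57.2 CPM in Van, and their part in the levels of these genes was not tested. Vangl2, a planar polarity gene, was the most even of the 5 within Con, at 8.68, 6.25 and 7.86 CPM, and measured 2.78, 2.47 and 2.50 CPM in Van. Crybb1, a crystallin gene, measured 2.53, 1.77 and 3.61 CPM in Con and 1.24, 0.765 and 1.44 CPM in Van.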
